A study of Danio rerio with 21 samples.

Results

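The comparison set livers of *srebf1-/-;sec31anju221* larvae against livers of *srebf2-/-;sec31anju221* larvae, both at 7 dpf (days post fertilization), with 3 RNA-seq libraries for each genotype. These 6 libraries were taken by their genotype labels from the 21 libraries of the series. All genes with counts were compared. Both genotypes are homozygous for *sec31anju221*, a gene-trap insertion in an intron of *sec31a* that leaves a hypomorphic allele. *srebf1* or *srebf2* was additionally disrupted by a CRISPR/Cas9 deletion. These lines are written below as *srebf1* DM and *srebf2* DM (double mutants). The single mutant *sec31anju221* and WT, with 3 libraries each at the same age, are given where they place the double mutants. The study made these lines to ask whether the Srebp factors contribute to the fatty liver of *sec31anju221* larvae. Livers were dissected with forceps and dissociated with trypsin before low-input library construction. The number of livers in a library was not given in the sources used here.

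Sec31a is a subunit of the outer COPII coat, which carries newly made proteins and lipoproteins out of the endoplasmic reticulum (ER). Srebf1 and Srebf2 (Srebp1 and Srebp2) are ER membrane proteins that Scap escorts to the Golgi when sterols are low, where proteases release the transcription factor domain. In mammalian liver Srebf2 is known mainly for driving cholesterol synthesis and uptake, and Srebf1 for fatty acid synthesis. The direct contrast of both double mutants therefore asks which genes differ between livers that lack one or the other factor on the same *sec31a* background.

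Total counts were 20574952 to 20712764 per library in *srebf1* DM and 18918025 to 19007022 in *srebf2* DM. Levels are given in CPM, the count of a gene scaled to its library size after TMM correction. A level of 1 CPM was 14.5 to 14.6 counts in a *srebf1* DM library and 10.6 to 10.7 counts in a *srebf2* DM library. Between 14188 and 14301 genes reached 1 CPM of the uncorrected library total in *srebf1* DM, against 11627 to 11909 genes in *srebf2* DM. Among the 3 libraries of a genotype, the spread of a count, as variance over mean, was 1.88 in *srebf1* DM and 1.95 in *srebf2* DM. Genes with 2000 to 10000 counts had a ratio of 2.1 in *srebf1* DM and 1.94 in *srebf2* DM, where a variation of 10% between livers would give 39.2 in *srebf1* DM and 37.7 in *srebf2* DM. The libraries of a genotype thus differed by little more than the sampling of reads, and they were counted as 1 sample. There is no replicate check of any difference between the genotypes, no p-value is given, and errors and ranges describe counting precision only.

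A gene was called when its level differed by at least 2-fold, the libraries of the 2 genotypes did not overlap, and its mean was at least 1 CPM in one of them. Of 17302 genes tested, 2445 were higher in *srebf1* DM (14.1%) and 1557 were lower (9.0%), so that 23.1% were called. At 10 CPM or more, 523 of 6376 genes were higher (8.2%) and 764 were lower (12%). The excess of higher calls lay in the weakly expressed genes. Between 1 and 2 CPM, 21.6% of genes were higher and 4.17% lower, with a median log2 fold change (*srebf1* over *srebf2* DM) of 0.47. Over all genes tested this median was 0.14. With DESeq2 size factors the median moved by -0.12 and 50.7% of the calls were higher, against 61.1% with TMM. With library totals as the only scaling the median moved by 0.33 and 83.4% of the calls were higher. Counts of list members are therefore also given at 10 CPM or more. Log2 fold changes are to be read against the median of 0.14 over all genes tested. For genes with 10 CPM or more the median to read against was -0.122. Counts of called list members are likewise to be read against the shares over all genes given above.

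**Figure D1:**
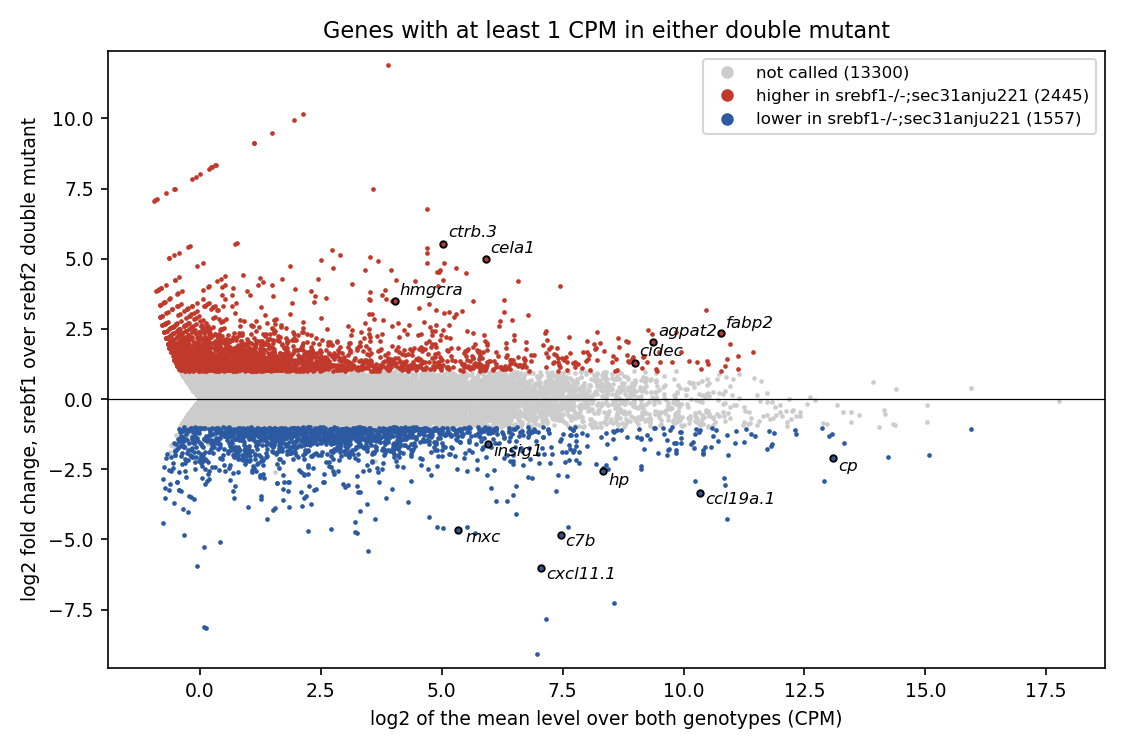
Log2 fold change (*srebf1* over *srebf2* double mutant) against the log2 mean level over both genotypes in CPM, 1 point per gene tested. Red points are the 2445 genes called higher in *srebf1-/-;sec31anju221*, blue points the 1557 called lower and grey points the 13300 not called; red points crowd at the low levels on the left.

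The disrupted genes were weakly expressed in liver. *srebf1* had 3, 9 and 8 counts in the *srebf1* DM libraries and 3, 4 and 6 counts in the *srebf2* DM libraries, which is a mean of 0.457 CPM in *srebf1* DM (95% counting interval 0.225 to 0.826) and 0.407 CPM in *srebf2* DM (0.159 to 0.853). Both lay below *sec31anju221* at 1.58 CPM and WT at 1.43 CPM. *srebf1* thus did not separate the double mutants from each other. *srebf2* had 30, 51 and 50 counts in *srebf1* DM, against 13, 9 and 10 counts in *srebf2* DM, a mean of 2.99 CPM in *srebf1* DM against 1 CPM in *srebf2* DM. The 2.98-fold difference ran in the direction of the labels, with 4.45 CPM in *sec31anju221* and 4.68 CPM in WT.

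*sec31a*, trapped in both lines, had 2.03 CPM in *srebf1* DM and 4.95 CPM in *srebf2* DM, against 2.64 CPM in *sec31anju221* and 19.5 CPM in WT. With library totals the log2 fold change of *sec31a* was -0.95, under the limit. The paralog *sec31b* ran the other way. It had 11.5, 10.4 and 9.92 CPM in *srebf1* DM and 4.78, 3.2 and 4.04 CPM in *srebf2* DM, with 7.69 CPM in *sec31anju221* and 1.82 CPM in WT. The double mutants thus also differed in transcripts of the coat gene pair that they share as background.

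Hepatocyte markers were abundant in both genotypes. The lipoprotein gene *apoa2* took 15.4% to 15.7% of all counts in *srebf1* DM and 12.6% to 13% in *srebf2* DM. *fabp10a*, the liver fatty acid binding protein that defines zebrafish hepatocytes, was looked up after the values were seen and averaged 8194 CPM in *srebf1* DM and 14390 CPM in *srebf2* DM. In bulk samples such as these, fewer cells of a type and less RNA per cell cannot be told apart.

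Cholesterol synthesis genes were called in both directions, more often higher. The list held 24 enzymes, of which 21 were tested, 7 were higher and 2 lower in *srebf1* DM, and the median log2 fold change was 0.29. At 10 CPM or more, 2 of 10 were higher, 1 was lower and 7 were not called. Over all genes tested 14.1% were higher and 9.0% lower, and at 10 CPM or more 8.2% and 12%. The higher share of all genes was 21.6% between 1 and 2 CPM and 17% between 2 and 5 CPM. The gene that stood out was *hmgcra*, one of 2 zebrafish genes for HMG-CoA reductase, the rate-limiting enzyme of cholesterol synthesis. It had 28.5, 29.8 and 31.8 CPM in *srebf1* DM, against 3, 3.01 and 1.97 CPM in *srebf2* DM. The genotypes were far apart, with a log2 fold change of 3.49 ± 0.23 (counting SE). *hmgcra* stood at 60.4 CPM in *sec31anju221* and 5.19 CPM in WT, so that *srebf2* DM had the lowest level of these 4 genotypes. The paralog *hmgcrb* had 33.7, 39.7 and 37.7 CPM in *srebf1* DM and 38.4, 35.8 and 39.1 CPM in *srebf2* DM. These ranges overlapped, with a log2 fold change of -0.03 ± 0.08. Both lay between *sec31anju221* at 52.9 CPM and WT at 20.8 CPM.

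Of the other sterol enzymes, *msmo1*, which removes a methyl group from sterol intermediates, had 11.07, 10.2 and 9.31 CPM in *srebf1* DM and 3, 4.13 and 3.38 CPM in *srebf2* DM. Its level was 2.9-fold higher in *srebf1* DM. The mevalonate pathway enzymes *mvk*, *pmvk* and *mvda* and the cyclase *lss* were also called higher, with log2 fold changes of 1.17, 1.02, 1.12 and 1.28 at levels under 7 CPM in both genotypes. *sqlea* (squalene epoxidase, a rate-limiting step of sterol synthesis) had 1.23 CPM in *srebf1* DM and 0.532 CPM in *srebf2* DM. Some of these low calls rested on single libraries: without replicate 3 of *srebf2* DM the log2 fold change was 0.90 for *sqlea* and 0.83 for *mvda*, and *pmvk* stood at 0.97 without replicate 1 of *srebf1* DM and 0.94 without replicate 1 of *srebf2* DM. With DESeq2 size factors *pmvk* was at 0.90. Lower in *srebf1* DM were the sterol reductase *tm7sf2* (3.5 CPM in *srebf1* DM against 14.9 CPM in *srebf2* DM, log2 fold change -2.09 ± 0.18) and *nsdhl* (1.39 CPM in *srebf1* DM against 4.38 CPM in *srebf2* DM, -1.65 ± 0.3), which acts in sterol demethylation. *hmgcs1*, *fdps*, *idi1* and *dhcr7*, looked up after the values were seen, were not called, with log2 fold changes of 0.29, -0.02, 0.03 and -0.63.

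The regulators of Srebp processing did not move as a group. Of 16 genes listed, 14 were tested, 3 were higher and 3 lower (0 and 1 of 5 at 10 CPM or more), and the median was -0.20, which library totals turned to 0.13. The higher genes include *srebf2* itself, which is deleted in *srebf2* DM, so its call says nothing about processing. Over all genes tested 14.1% were higher and 9.0% lower. *insig1* encodes the ER protein that retains Scap and Srebp when sterols are plentiful. It had 33.2, 29.8 and 29.9 CPM in *srebf1* DM and 92.1, 92.3 and 95.7 CPM in *srebf2* DM, a log2 fold change of -1.59 ± 0.07. *srebf1* DM was the lowest of 4 genotypes, with 71.3 CPM in *sec31anju221* and 242 CPM in WT. *insig2* was lower too, at 0.549 CPM in *srebf1* DM against 1.31 CPM in *srebf2* DM, but this call was lost without replicate 3 of *srebf2* DM (-0.83) and with library totals (-0.92). Of the NF-Y subunits, which bind promoters beside Srebp, *nfya* was lower (2.54 CPM in *srebf1* DM against 7.26 CPM in *srebf2* DM) and *nfyb* was higher (6.86 CPM in *srebf1* DM against 3.35 CPM in *srebf2* DM). The call of *nfyb* was lost without replicate 3 of *srebf1* DM (0.91), without replicate 1 of *srebf2* DM (0.81) and with DESeq2 size factors (0.91). *fbxw7*, the ubiquitin ligase subunit that marks mature Srebp for degradation, had 3.89 CPM in *srebf1* DM against 1.6 CPM in *srebf2* DM. *scap* and the site proteases *mbtps1* and *mbtps2* were not called, with log2 fold changes of 0.86, -0.42 and -0.01.

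For cholesterol uptake and storage, 0 of 19 genes tested were higher and 2 were lower in *srebf1* DM. At 10 CPM or more 0 of 13 were higher and 2 lower. All genes tested were 14.1% higher and 9.0% lower, and at 10 CPM or more 8.2% and 12%. The lower calls were thus near the share of all genes. The median of the list was -0.15, which library totals turned to 0.18. *ldlra*, one of the zebrafish LDL receptor genes, had 46.6, 41.4 and 42.3 CPM in *srebf1* DM, against 87.6, 94.3 and 88.9 CPM in *srebf2* DM. The genotypes did not overlap and the log2 fold change was -1.06 ± 0.06. *soat2*, which esterifies cholesterol for storage and secretion, had 65.4, 65.9 and 65.8 CPM in *srebf1* DM and 151, 161 and 161 CPM in *srebf2* DM, with 33.9 CPM in *sec31anju221* and 31 CPM in WT. Both double mutants were above these, and *srebf2* DM was the highest. With library totals these log2 fold changes were -0.73 for *ldlra* and -0.93 for *soat2*, under the 2-fold limit.

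**Figure D2:**
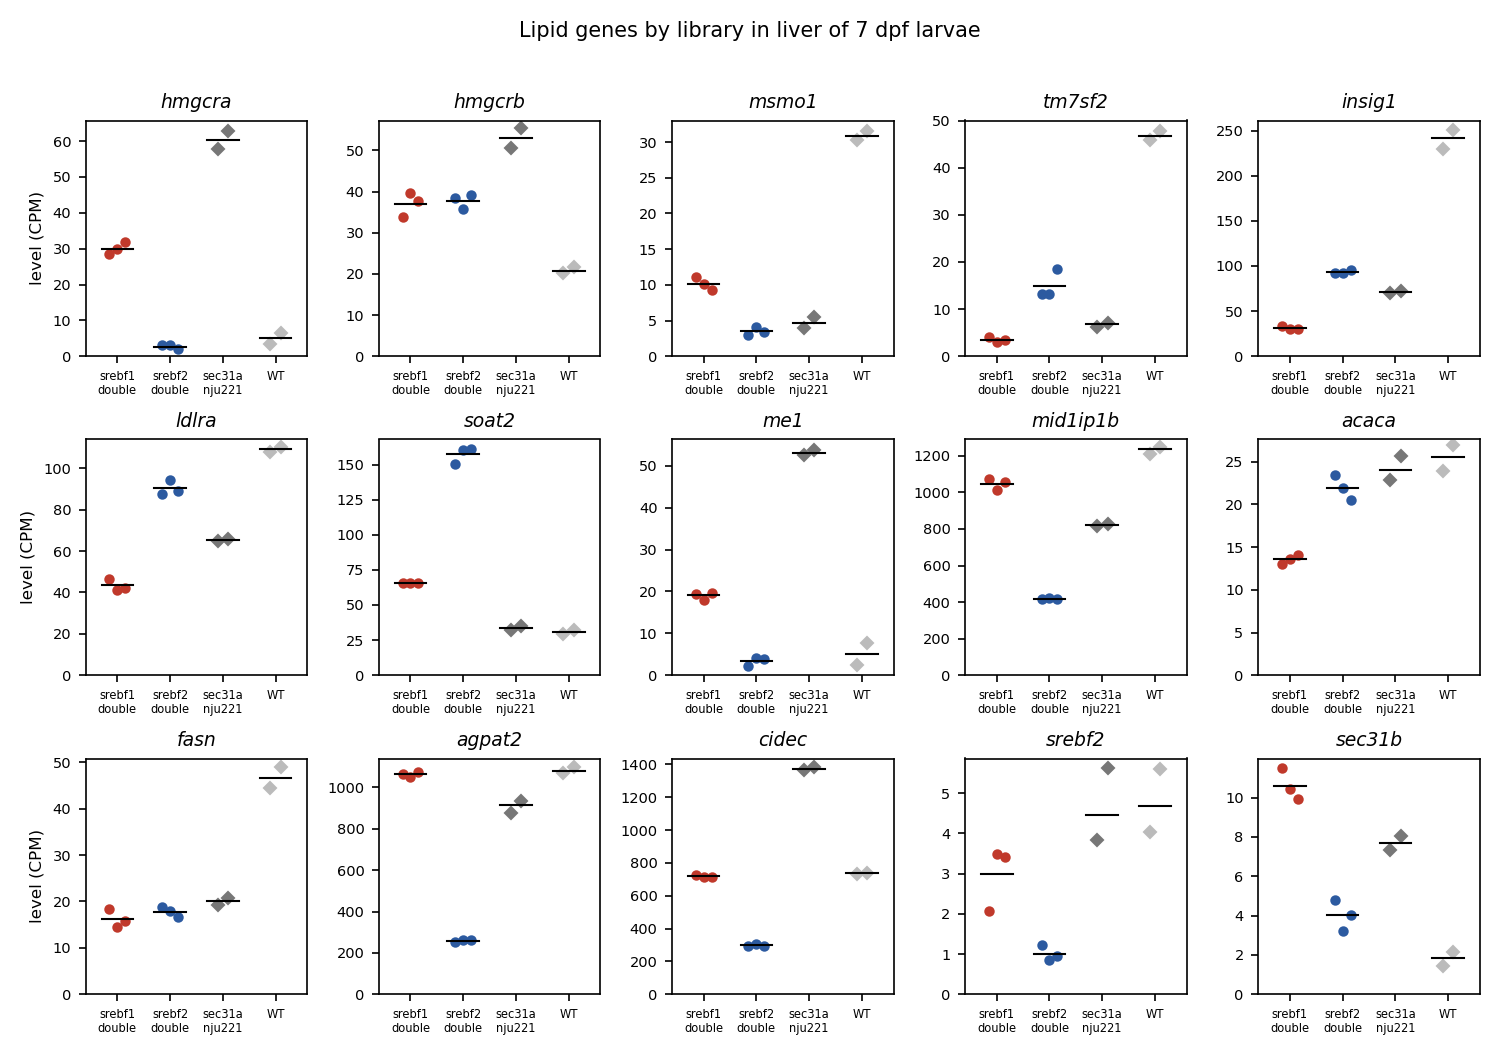
Levels in CPM of 15 genes for lipid metabolism, the Srebp pathway and the COPII coat, 1 panel per gene with its own axis from 0. Circles are libraries of *srebf1-/-;sec31anju221* (red) and *srebf2-/-;sec31anju221* (blue), diamonds the lowest and highest library of *sec31anju221* and WT, and black lines the means of 3 libraries; *hmgcra* is at 30 CPM in the *srebf1* double mutant and 2.66 CPM in the *srebf2* double mutant, while *hmgcrb* overlaps.

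The fatty acid list, which holds textbook targets of Srebf1, was near even. Of 29 genes tested, 5 were higher and 3 lower in *srebf1* DM, with a median of 0.27. At 10 CPM or more, 2 of 18 were higher and 2 lower. The shares over all genes were 14.1% higher and 9.0% lower, and 8.2% and 12% at 10 CPM or more. Transcripts of *srebf1* did not separate the genotypes, at 0.457 CPM in *srebf1* DM and 0.407 CPM in *srebf2* DM. The part of Srebf1 in these genes was not tested. The rate-limiting carboxylase *acaca* had 13, 13.6 and 14.1 CPM in *srebf1* DM and 23.4, 21.9 and 20.5 CPM in *srebf2* DM. The libraries did not overlap, but the log2 fold change of -0.69 ± 0.11 was under the 2-fold limit. The fatty acid synthase *fasn* had 18.4, 14.5 and 15.9 CPM in *srebf1* DM and 18.7, 17.9 and 16.5 CPM in *srebf2* DM. Its levels overlapped (-0.13 ± 0.11), and both were under *sec31anju221* at 20 CPM and WT at 46.6 CPM.

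Genes around the synthase differed more. The malic enzyme *me1*, which supplies NADPH for lipid synthesis, had 19.4, 18 and 19.7 CPM in *srebf1* DM and 2.16, 4.23 and 3.76 CPM in *srebf2* DM, a log2 fold change of 2.49 ± 0.21. Its level in *sec31anju221* was 53.2 CPM and in WT 5.18 CPM, the same order of genotypes as for *hmgcra*. *me2* was higher as well, at 1.12 CPM in *srebf1* DM against 0.282 CPM in *srebf2* DM. *mid1ip1b*, whose mammalian counterpart promotes polymerization of the carboxylase, had 1074, 1013 and 1059 CPM in *srebf1* DM, against 415, 422 and 417 CPM in *srebf2* DM. Here *srebf2* DM stood below *sec31anju221* (821 CPM) and WT (1235 CPM). The elongases *elovl5* (5.08 CPM in *srebf1* DM against 1.06 CPM in *srebf2* DM) and *elovl6* (4.57 CPM in *srebf1* DM against 1.72 CPM in *srebf2* DM) were higher in *srebf1* DM, and *elovl1b* (15.6 CPM in *srebf1* DM against 39.6 CPM in *srebf2* DM) and *elovl7a* (0.686 CPM in *srebf1* DM against 3.16 CPM in *srebf2* DM) were lower. The citrate carrier *slc25a1b* was lower, at 9.74 CPM in *srebf1* DM against 25.8 CPM in *srebf2* DM.

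In triglyceride and phospholipid synthesis, 4 of 26 genes tested were higher and 2 lower. At 10 CPM or more 3 of 17 were higher and 2 lower. The shares over all genes were 14.1% higher and 9.0% lower, and at 10 CPM or more 8.2% and 12%. The acyltransferase *agpat2*, which makes phosphatidic acid, had 1065, 1049 and 1076 CPM in *srebf1* DM and 254, 263 and 261 CPM in *srebf2* DM. It was 4.1-fold higher, and *srebf1* DM was close to *sec31anju221* (915 CPM) and WT (1079 CPM). *cds1*, which turns phosphatidic acid into CDP-diacylglycerol, had 10.9 CPM in *srebf1* DM against 4.26 CPM in *srebf2* DM, and *pisd*, the phosphatidylserine decarboxylase, 28.4 CPM in *srebf1* DM against 12.8 CPM in *srebf2* DM. *agpat4* had 1.1 CPM in *srebf1* DM against 0.501 CPM in *srebf2* DM, and its call was lost without replicate 3 of *srebf1* DM (0.77) or replicate 1 of *srebf2* DM (0.84). On the lipid droplet list, 2 of 14 genes tested were higher and 0 lower (1 and 0 of 6 at 10 CPM or more). Over all tested members, both lists were thus higher about as often as all genes. *cidec*, a droplet protein that promotes droplet growth, had 728, 711 and 713 CPM in *srebf1* DM and 291, 307 and 296 CPM in *srebf2* DM. It was higher in *sec31anju221*, at 1372 CPM, than in both double mutants. *fitm2*, needed for droplet budding from the ER, had 8.99 CPM in *srebf1* DM against 4.45 CPM in *srebf2* DM, a call lost without replicate 1 of *srebf2* DM (0.88), without replicate 1 of *srebf1* DM (0.996) and with DESeq2 size factors (0.89).

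Of the beta-oxidation genes, 4 of 32 tested were higher and 2 lower (3 and 2 of 29 at 10 CPM or more). The mitochondrial thiolase *acaa2* had 78.8, 74.6 and 81.1 CPM in *srebf1* DM, against 373, 388 and 369 CPM in *srebf2* DM. The acyl-CoA synthetase *acsl1b* (20.2 CPM in *srebf1* DM against 6.07 CPM in *srebf2* DM), the trifunctional enzyme subunit *hadha* (81.6 CPM in *srebf1* DM against 36 CPM in *srebf2* DM) and the receptor *pparaa* (2.06 CPM in *srebf1* DM against 0.845 CPM in *srebf2* DM) were higher. Over all genes tested 14.1% were higher and 9.0% lower, and at 10 CPM or more 8.2% and 12%. The counts of beta-oxidation genes were near these shares, with a list median of 0.22. Of the lipoprotein genes, 5 of 26 tested were higher and 3 lower (5 and 1 of 19 at 10 CPM or more). The apolipoprotein E paralogs differed in opposite directions: *apoeb* had 70.21 CPM in *srebf1* DM against 21.1 CPM in *srebf2* DM and *apoea* 0.732 CPM in *srebf1* DM against 3.35 CPM in *srebf2* DM, and *sec31anju221* had 233 CPM and 72.1 CPM of these genes, above both double mutants. *apoa4b.3* had 37.8 CPM in *srebf1* DM against 11 CPM in *srebf2* DM. Close paralogs can share reads, so such pairs are uncertain.

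Of 24 genes of glucose metabolism, 3 were higher and 3 lower (1 and 3 of 20 at 10 CPM or more). These counts were near the shares over all genes, 14.1% higher and 9.0% lower (8.2% and 12% at 10 CPM or more). *pcxb*, a pyruvate carboxylase, had 29.8, 29.8 and 28.1 CPM in *srebf1* DM and 122.9, 123.2 and 132.1 CPM in *srebf2* DM. The glycolytic enzyme *gapdh* was lower, at 4736 CPM in *srebf1* DM against 11844 CPM in *srebf2* DM, a call lost with library totals (-0.992). *ugp2b*, which makes UDP-glucose for glycogen, was higher at 66.2 CPM in *srebf1* DM against 25.4 CPM in *srebf2* DM, and the glucokinase regulator *gckr* had 1.12 CPM in *srebf1* DM against 0.313 CPM in *srebf2* DM. On the bile acid list, 1 of 12 genes was higher, *cyp7b1* at 1.17 CPM in *srebf1* DM against 0.376 CPM in *srebf2* DM, and 0 were lower. None of these, 0 of 8, was called at 10 CPM or more.

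Genes of the unfolded protein response, which raises ER chaperones when proteins misfold, were more often higher than lower in *srebf1* DM. Of 16 targets of Atf6, 7 were higher, 0 lower and 9 were not called, with a median of 0.94. Of 30 targets of Xbp1 tested, 7 were higher and 1 lower, with a median of 0.61. These 2 lists share 4 genes. At 10 CPM or more, 6 of 15 Atf6 targets and 7 of 25 Xbp1 targets were higher and 0 of either list lower, beside 8.2% higher over all genes at this level. Both medians stayed above 0 with every scaling tried.

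Among the Atf6 targets, *creld2*, an ER isomerase, had 52.6, 51 and 54.5 CPM in *srebf1* DM and 15.9, 14.8 and 16.6 CPM in *srebf2* DM. *sdf2l1*, a partner of the chaperone BiP, had 43 CPM in *srebf1* DM against 15.1 CPM in *srebf2* DM, *derl3*, of ER-associated degradation, 9.6 CPM in *srebf1* DM against 3.13 CPM in *srebf2* DM, and the lectin chaperone *calr* 250 CPM in *srebf1* DM against 90 CPM in *srebf2* DM. *hspa5*, which encodes BiP and was looked up after the values were seen, had 241 CPM in *srebf1* DM against 141 CPM in *srebf2* DM, a log2 fold change of 0.78 ± 0.04 that was under the limit. It was above *sec31anju221* (100 CPM) and WT (38.9 CPM) in both double mutants. Among the Xbp1 targets, the signal peptidase subunit *spcs2* had 751, 738 and 753 CPM in *srebf1* DM against 177, 190 and 174 CPM in *srebf2* DM, and the translocon subunit *sec61b* 2782, 2783 and 2766 CPM in *srebf1* DM against 1032, 1037 and 1052 CPM in *srebf2* DM. The co-chaperone *dnajb11* had 151 CPM in *srebf1* DM against 55.8 CPM in *srebf2* DM and *ergic1*, of the ER-Golgi compartment, 302 CPM in *srebf1* DM against 125 CPM in *srebf2* DM. The Xbp1 target called lower was *ssr1*, a translocon-associated subunit, at 1.05 CPM in *srebf1* DM against 2.41 CPM in *srebf2* DM.

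Exocrine pancreas genes, which can enter dissected livers with adjoining tissue, moved in the same direction as these ER genes, with a sum of 939 to 951 CPM in *srebf1* DM and 67.2 to 70.29 CPM in *srebf2* DM. Their part in the ER gene differences was not tested. The sum of Xbp1 targets was 17006 to 17145 CPM in *srebf1* DM and 11097 to 11164 CPM in *srebf2* DM, against 14606 to 14653 CPM in *sec31anju221* and 4207 to 4248 CPM in WT. For Atf6 targets it was 2012 to 2077 CPM in *srebf1* DM and 1180 to 1198 CPM in *srebf2* DM, against 1335 to 1342 CPM in *sec31anju221* and 710 to 735 CPM in WT.

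The COPII list leaned to the same side, with 4 of 17 genes higher, 1 (*sec31a*) lower, 12 not called and a median of 0.45. Of 14 with 10 CPM or more, 4 were higher and 0 lower. The share higher over all genes was 14.1%, and 8.2% at 10 CPM or more. With DESeq2 size factors 3 of the 17 were higher and 1 lower, and with library totals 5 and 0. *sar1b*, the GTPase that starts coat assembly and is needed for lipoprotein export in humans, had 224, 238 and 226 CPM in *srebf1* DM and 66.9, 63.5 and 69.8 CPM in *srebf2* DM. The level of *sec31anju221*, 328 CPM, was above both, and *srebf2* DM was near WT (68.8 CPM). *sec13*, the partner of Sec31 in the outer coat, had 15.6 CPM in *srebf1* DM against 6.32 CPM in *srebf2* DM.

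Atf4 targets, the third arm, did not follow in their calls. Of 33 tested, 2 were higher and 3 lower (1 and 2 of 19 at 10 CPM or more), with a median of 0.26. Over all genes tested 14.1% were higher and 9.0% lower. At 10 CPM or more the median of the list was 0.29, with 12 of 19 above 0, beside -0.122 over all genes at this level. The serine synthesis enzyme *psat1* had 65.1, 69.8 and 69.8 CPM in *srebf1* DM and 19.9, 20.6 and 22.1 CPM in *srebf2* DM. *atf5a* had 2.33 CPM in *srebf1* DM against 0.595 CPM in *srebf2* DM. On the other side, *cebpb*, a transcription factor of the hepatic acute phase that is also an Atf4 target, had 108, 104 and 99.1 CPM in *srebf1* DM against 597, 579 and 592 CPM in *srebf2* DM. *vldlr*, a lipoprotein receptor, had 3.77 CPM in *srebf1* DM against 8.51 CPM in *srebf2* DM, which library totals put at -0.84.

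**Figure D3:**
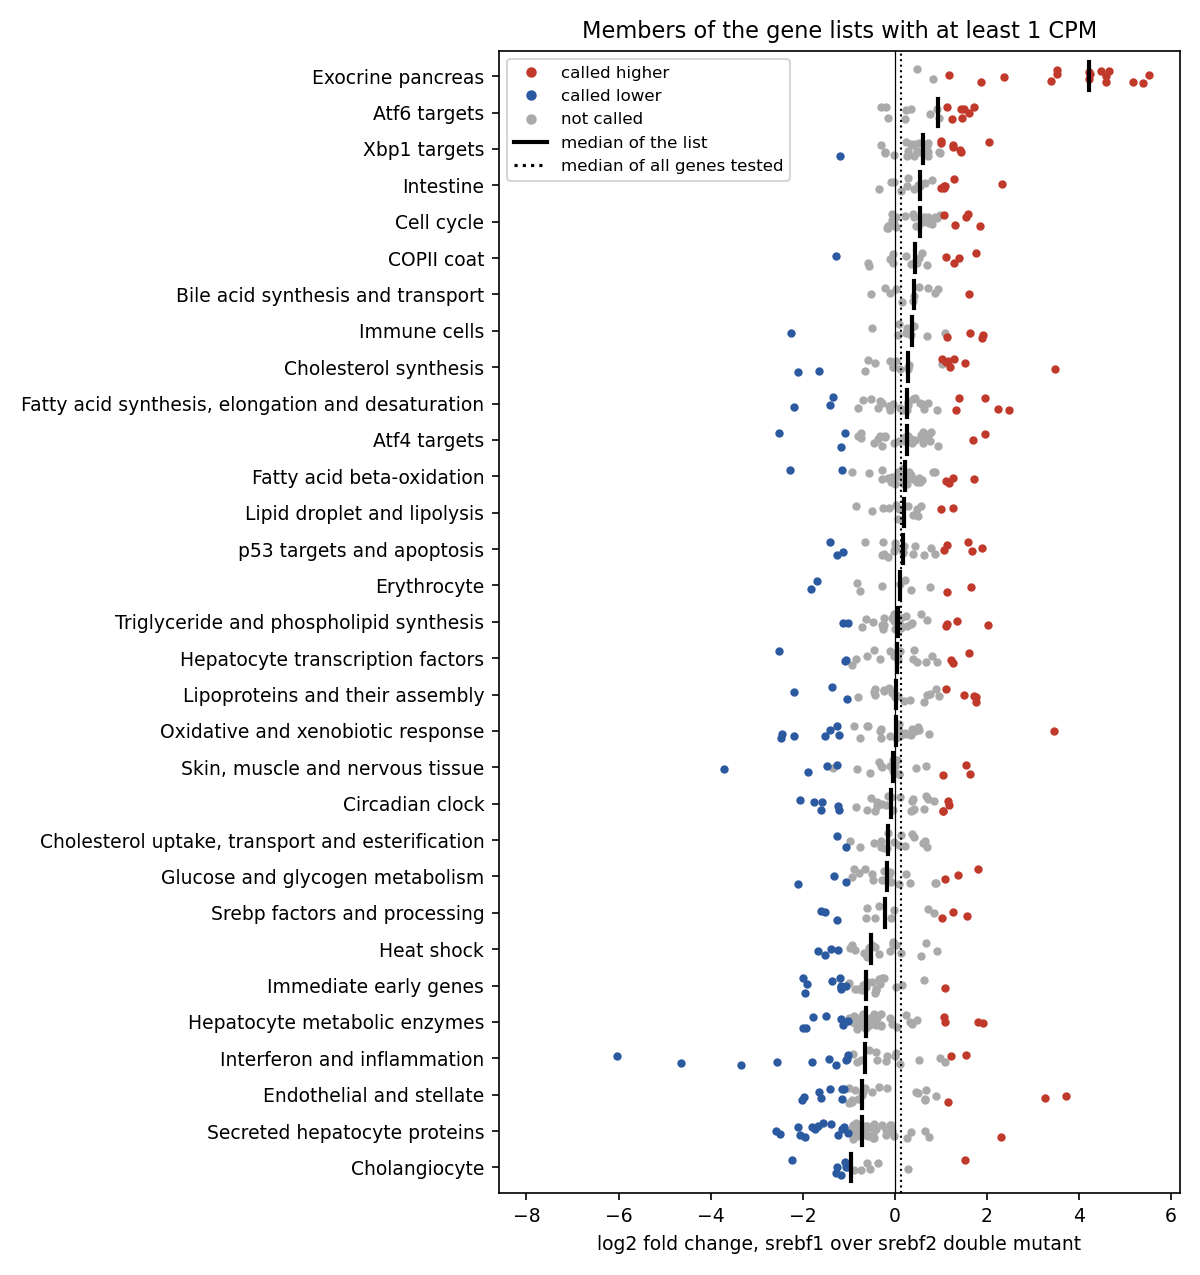
Log2 fold change (*srebf1* over *srebf2* double mutant) of every list member with at least 1 CPM in either genotype, 1 row per list, ordered by the list's median (black bar). Red members were called higher and blue lower in *srebf1-/-;sec31anju221*; the dotted line is the median of all genes tested, 0.14, and the exocrine pancreas row has a median of 4.23.

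Defense genes were more often lower than higher in *srebf1* DM. Of 26 interferon and inflammation genes tested, 10 were lower and 2 higher, with a median of -0.64 that stayed below 0 with every scaling tried. At 10 CPM or more, 7 of 15 were lower and 0 higher, beside 12% lower over all genes at this level. *cxcl11.1*, a chemokine induced by interferon, had 2.82, 5.08 and 4.17 CPM in *srebf1* DM, against 258, 261 and 268 CPM in *srebf2* DM. It was 65.1-fold lower, and *srebf2* DM stood far above *sec31anju221* (0.256 CPM) and WT (0.298 CPM) as well. The antiviral GTPase *mxc* had 3.71, 2.67 and 2.88 CPM in *srebf1* DM against 84.1, 73.4 and 75.2 CPM in *srebf2* DM. The chemokine *ccl19a.1* had 231, 235 and 236 CPM in *srebf1* DM against 2366, 2354 and 2369 CPM in *srebf2* DM. *sec31anju221* was nearer to *srebf1* DM in both, with 4.11 CPM of *mxc* and 68.6 CPM of *ccl19a.1*. The immunoproteasome subunit *psmb8a* had 0.412 CPM in *srebf1* DM against 2.44 CPM in *srebf2* DM and 0 counts in *sec31anju221*. Other interferon genes did not follow: *isg15* and *stat1a*, looked up after their values were seen, had log2 fold changes of 0.03 and 0.13. The summed level of immune cell genes was 105 to 109.7 CPM in *srebf1* DM and 82.7 to 86.3 CPM in *srebf2* DM. This difference lay largely in *marco*, with 24.7 CPM in *srebf1* DM against 6.61 CPM in *srebf2* DM. *cd74a* ran the other way, with 2.22 CPM in *srebf1* DM against 10.5 CPM in *srebf2* DM. The part of immune cells in the chemokine differences was not tested.

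Of the 10 named genes that were lowest in *srebf1* DM by fold change, 9 had at most 15.8 CPM in *srebf1* DM, *sec31anju221* and WT. Besides *cxcl11.1* and *mxc*, they included the complement components *c7b* (13, 11 and 11.8 CPM in *srebf1* DM against 353, 329 and 337 CPM in *srebf2* DM) and *c1r* (3.61 CPM in *srebf1* DM against 99.4 CPM in *srebf2* DM). The chemokine *ccl19b* had 0.664 CPM in *srebf1* DM against 17.8 CPM in *srebf2* DM and *batf2*, a leucine zipper transcription factor induced by interferon in mammals, 0.503 CPM in *srebf1* DM against 21.6 CPM in *srebf2* DM. *noxo1a*, an organizer of the NADPH oxidase, had 2.56 CPM in *srebf1* DM against 62.2 CPM in *srebf2* DM, and *cldnb*, a tight junction claudin of epithelia, 15.8 CPM in *srebf1* DM against 377 CPM in *srebf2* DM. *ecrg4b* had 0.664 CPM in *srebf1* DM against 18.4 CPM in *srebf2* DM. The exception in pattern was *dtnbp1b*, with 0.503 CPM in *srebf1* DM, 12.5 CPM in *srebf2* DM, 18.4 CPM in *sec31anju221* and 37.3 CPM in WT, so that *srebf1* DM stood apart.

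Proteins that hepatocytes secrete into plasma lay mostly on the same side. Of 51 tested, 14 were lower in *srebf1* DM, 1 was higher and 36 were not called, with a median of -0.71. Of 49 with 10 CPM or more, 14 were lower and 1 higher. Over all genes tested 9.0% were lower and 14.1% higher, and at 10 CPM or more 12% and 8.2%. With library totals 10 of the 51 were lower and 2 higher, with a median of -0.385. Their summed level was 98705 to 99054 CPM in *srebf1* DM and 198064 to 199683 CPM in *srebf2* DM, against 59747 to 59929 CPM in *sec31anju221* and 118714 to 119116 CPM in WT. Haptoglobin (*hp*), an acute phase protein that binds hemoglobin, had 95.1, 93.7 and 91.4 CPM in *srebf1* DM, against 553, 566 and 542 CPM in *srebf2* DM. It was at 20.9 CPM in *sec31anju221* and 1.43 CPM in WT. Ceruloplasmin (*cp*), the copper carrier, had 3317 CPM in *srebf1* DM against 14188 CPM in *srebf2* DM, and the protease inhibitor *a2ml* 170 CPM in *srebf1* DM against 949 CPM in *srebf2* DM. The complement protein *c3a.1* (7437 CPM in *srebf1* DM against 30699 CPM in *srebf2* DM), *c9* (5168 CPM in *srebf1* DM against 15289 CPM in *srebf2* DM) and the iron hormone *hamp* (1725 CPM in *srebf1* DM against 5442 CPM in *srebf2* DM), named after their values were seen, were lower too. The member on the other side was *cfh*, an inhibitor of complement, with 1102, 1072 and 1088 CPM in *srebf1* DM against 214, 223 and 221 CPM in *srebf2* DM.

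Of 42 hepatocyte enzymes tested, 7 were lower and 4 higher, with a median of -0.61 (7 and 2 of 37 at 10 CPM or more). Over all genes tested 9.0% were lower and 14.1% higher. With library totals 4 of the enzymes were lower and 4 higher, with a median of -0.285. *gamt*, of creatine synthesis, had 779 CPM in *srebf1* DM against 3072 CPM in *srebf2* DM, and the tyrosine aminotransferase *tat* 566 CPM in *srebf1* DM against 2153 CPM in *srebf2* DM. *gatm*, the step before Gamt, ran the other way at 457 CPM in *srebf1* DM against 130 CPM in *srebf2* DM, and the urea cycle gene *otc* had 2.86 CPM in *srebf1* DM against 0.751 CPM in *srebf2* DM. Of the hepatocyte transcription factors, 3 of 22 were higher and 3 lower, and at 10 CPM or more 0 of 13 were higher and 3 lower, with a median of -0.32. *pparg* (2.22 CPM in *srebf1* DM against 0.72 CPM in *srebf2* DM), *pparaa* and *hnf4b* (8.1 CPM in *srebf1* DM against 3.44 CPM in *srebf2* DM) were higher. The lower ones were *cebpb*, *cebpd* (445 CPM in *srebf1* DM against 919 CPM in *srebf2* DM) and *onecut1* (6.93 CPM in *srebf1* DM against 14.7 CPM in *srebf2* DM), of which *cebpd* and *onecut1* were named after their values were seen.

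More stress and signalling genes were called lower than higher in *srebf1* DM, most of all on the immediate early list. Of 29 immediate early genes 9 were lower and 1 higher (median -0.61), of 22 heat shock genes 4 were lower and 0 higher (-0.51), and of 31 genes of the oxidative and xenobiotic response 7 were lower and 1 higher (0.03, turned to -0.10 with DESeq2 size factors). The counts of lower and higher genes at 10 CPM or more were 7 and 0 of 21 immediate early genes, 1 and 0 of 9 heat shock genes and 4 and 0 of 25 oxidative and xenobiotic genes. Over all genes at this level 12% were lower and 8.2% higher. The heat shock and oxidative lists were thus near the lower share of all genes. With library totals the lower and higher counts were 4 and 1 for immediate early, 3 and 2 for heat shock and 5 and 2 for oxidative genes. *socs3a*, the feedback inhibitor of cytokine signalling, had 84.3, 77.8 and 80.3 CPM in *srebf1* DM, against 298, 293 and 309 CPM in *srebf2* DM. The heme oxygenase *hmox1a* had 31.9 CPM in *srebf1* DM against 146 CPM in *srebf2* DM and the glutathione peroxidase *gpx1b* 1.55 CPM in *srebf1* DM against 8.48 CPM in *srebf2* DM. *klf2a* (4 CPM in *srebf1* DM against 15.4 CPM in *srebf2* DM) and *dusp5* (1.76 CPM in *srebf1* DM against 6.98 CPM in *srebf2* DM) were among the immediate early genes, and *hspa4a* (15.7 CPM in *srebf1* DM against 49.3 CPM in *srebf2* DM) among the heat shock genes. Clock genes were split, 4 of 31 higher and 6 lower (2 and 5 of 16 at 10 CPM or more). *per3*, a repressor of the clock, had 23.6 CPM in *srebf1* DM against 97.8 CPM in *srebf2* DM. *cry1b*, another, had 8.69 CPM in *srebf1* DM against 26.3 CPM in *srebf2* DM. On the higher side, *nfil3-6* had 52 CPM in *srebf1* DM against 23.4 CPM in *srebf2* DM. *bhlhe41* had 11.5 CPM in *srebf1* DM against 5.07 CPM in *srebf2* DM. Both higher genes were named after their values were seen. The time of day of dissection was not given in the sources used here, and its part in these differences was not tested.

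**Figure D4:**
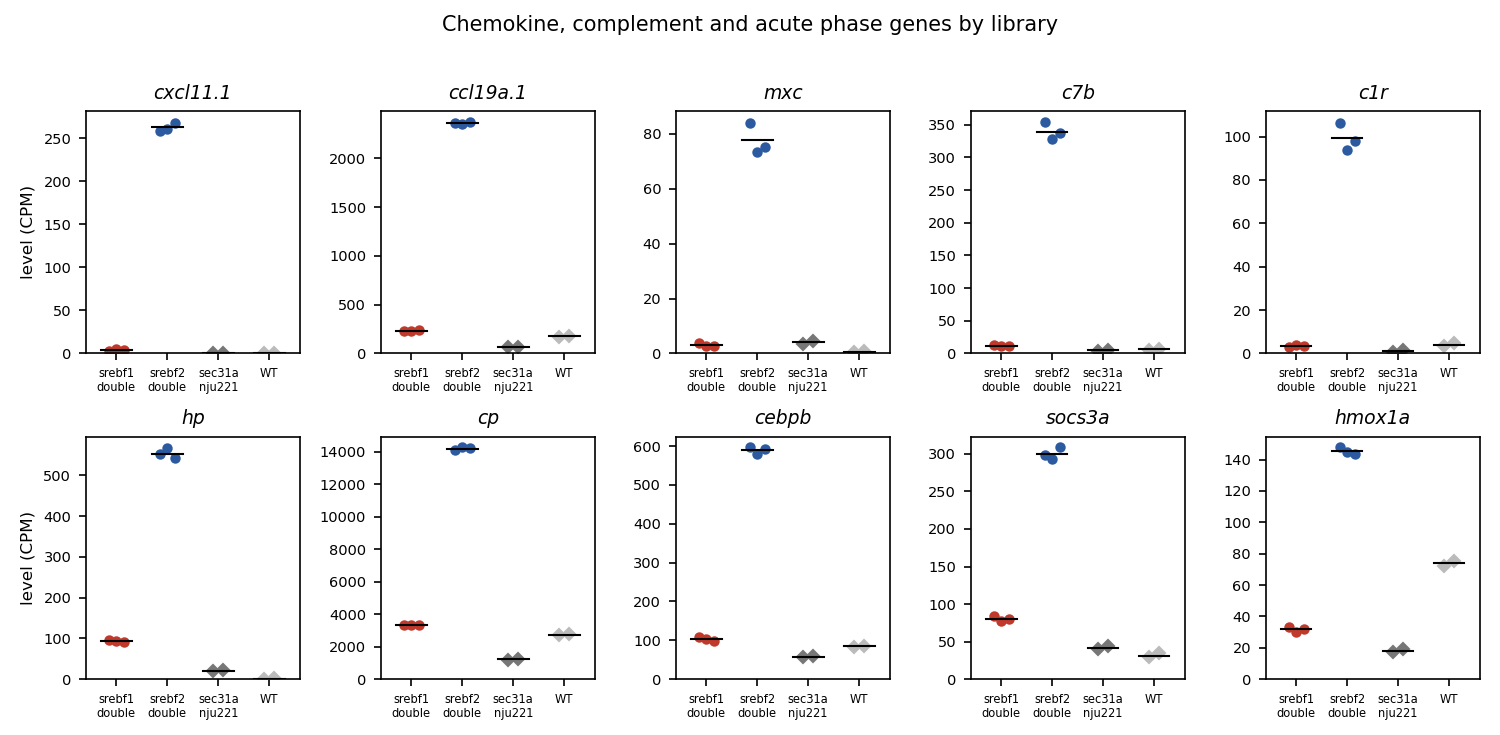
Levels in CPM of 10 chemokine, complement, acute phase and stress genes, 1 panel per gene with its own axis from 0. Circles are libraries of *srebf1-/-;sec31anju221* (red) and *srebf2-/-;sec31anju221* (blue), diamonds the lowest and highest library of *sec31anju221* and WT, and black lines the means; in each panel the *srebf2* double mutant is the highest of these 4 genotypes.

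Of 30 cell cycle genes, 5 were higher and 0 lower in *srebf1* DM, beside 14.1% higher and 9.0% lower over all genes tested, and at 10 CPM or more 2 of 13 were higher and 0 lower. *tyms*, thymidylate synthase, had 31.8, 32.5 and 26.9 CPM in *srebf1* DM and 12.6, 11.9 and 12.2 CPM in *srebf2* DM, and the replication factor *gins2* 11.7 CPM in *srebf1* DM against 3.19 CPM in *srebf2* DM. The p53 targets were called in both directions, 5 of 25 higher and 3 lower (3 and 3 of 19 at 10 CPM or more). *cdkn1a* (16.4 CPM in *srebf1* DM against 5.45 CPM in *srebf2* DM), *mdm2* (13.2 CPM in *srebf1* DM against 4.07 CPM in *srebf2* DM) and *bbc3* (6.84 CPM in *srebf1* DM against 1.82 CPM in *srebf2* DM) were higher and *phlda3* (7.09 CPM in *srebf1* DM against 18.8 CPM in *srebf2* DM) was lower.

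Markers of other cell types differed between the dissected livers. The exocrine pancreas, which lies next to the larval liver, gave the largest median difference of the 31 lists. Of 18 genes tested, 16 were higher in *srebf1* DM and 0 lower, with a median of 4.23, and at 10 CPM or more 14 of 14 were higher. A gene passes the 10 CPM filter on its level in either genotype. The members *ctrb.3*, *ctrl*, *ela3l* and *amy2a* passed it only through *srebf1* DM, so the count at this level is no separate support. Their summed level over 20 matched genes was 939 to 951 CPM in *srebf1* DM and 67.2 to 70.29 CPM in *srebf2* DM, against 143 to 150 CPM in *sec31anju221* and 2078 to 2092 CPM in WT. The amylase *amy2a*, at 1795 CPM, made up most of the WT sum. Without it, the other 19 genes summed to 862 to 874 CPM in *srebf1* DM and 64.4 to 67.2 CPM in *srebf2* DM, against 74.1 to 77.2 CPM in *sec31anju221* and 279 to 302 CPM in WT, and 17 of all 20 genes were lower in WT than in *srebf1* DM. The chymotrypsinogen *ctrb.3* had 64.4, 65.8 and 61.5 CPM in *srebf1* DM and 1.59, 0.94 and 1.6 CPM in *srebf2* DM. *ctrl* (50.2 CPM in *srebf1* DM against 1.19 CPM in *srebf2* DM), the elastase *ela3l* (50.4 CPM in *srebf1* DM against 1.38 CPM in *srebf2* DM) and *amy2a* (75.1 CPM in *srebf1* DM against 2.97 CPM in *srebf2* DM) followed. The pancreas fate regulators *ptf1a* and *rbpjl* were under 1 CPM in both genotypes.

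Pancreatic enzymes made up much of the named genes with the largest rise. Of the 10, *ctrb.3*, *ctrl*, *ela3l* and *amy2a* were on the pancreas list, and *cela1* (116 CPM in *srebf1* DM against 3.63 CPM in *srebf2* DM) and *c6ast4* (63.6 CPM in *srebf1* DM against 2.22 CPM in *srebf2* DM) also encode digestive enzymes. The others were the class II histocompatibility gene *mhc2dab* (14.6 CPM in *srebf1* DM against 0.407 CPM in *srebf2* DM), the cytochromes *cyp3c4* (22.1 CPM in *srebf1* DM against 0.657 CPM in *srebf2* DM) and *cyp2aa7* (50 CPM in *srebf1* DM against 1.72 CPM in *srebf2* DM), and *reep6*, an ER-shaping protein (10.9 CPM in *srebf1* DM against 0.344 CPM in *srebf2* DM). *mhc2dab* was at 0 counts in *sec31anju221*, and *cyp2aa7* at 40 CPM. Histocompatibility and cytochrome genes belong to families with close copies, so their values are uncertain.

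Intestine markers were 6 of 17 higher and 0 lower (1 and 0 of 2 at 10 CPM or more). Over all genes tested 14.1% were higher and 9.0% lower. *fabp2*, the intestinal fatty acid binding protein, made up most of the sum, with 2920, 2915 and 2909 CPM in *srebf1* DM and 566, 571 and 585 CPM in *srebf2* DM. It was at 3265 CPM in *sec31anju221* and 1665 CPM in WT. The meprin *mep1a.1*, the peptide transporter *slc15a1a* and the chitinase *chia.2* were under 3 CPM in both genotypes, and the calls of *slc15a1a* and *chia.2* were lost without replicate 2 of *srebf1* DM (0.991 and 0.69), with *chia.2* also at 0.93 without replicate 1 of *srebf2* DM. With DESeq2 size factors 2 of 17 intestine markers were higher.

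Biliary markers were more often lower than higher in *srebf1* DM with TMM, but not with library totals. Of 14 cholangiocyte genes, 7 were lower and 1 higher, with a median of -0.95 and a sum of 2658 to 2664 CPM in *srebf1* DM against 5113 to 5141 CPM in *srebf2* DM. *anxa3b*, an annexin, had 67.4, 66.5 and 63.2 CPM in *srebf1* DM against 299, 310 and 313 CPM in *srebf2* DM, and *anxa4*, a marker of biliary cells in zebrafish, 1118 CPM in *srebf1* DM against 2706 CPM in *srebf2* DM. The chloride channel *cftr* was higher at 2.9 CPM in *srebf1* DM against 1 CPM in *srebf2* DM, and *sox9b*, a regulator of biliary cells, was lower at 1.94 CPM in *srebf1* DM against 4.63 CPM in *srebf2* DM, a call lost without replicate 2 of *srebf1* DM (-0.93). Among genes with 10 CPM or more 5 of 9 were lower and 0 higher, and with library totals 1 of 14 was lower and 1 higher. Of 29 endothelial and stellate genes, 8 were lower and 3 higher, with a median of -0.71. Of 12 with 10 CPM or more, 6 were lower and 0 higher, but with library totals 5 of 29 were lower and 5 higher. The endothelial genes *pecam1a* (3.32 CPM in *srebf1* DM against 13.3 CPM in *srebf2* DM) and *plvapb* (5.65 CPM in *srebf1* DM against 22.3 CPM in *srebf2* DM) were lower. *des* (3.82 CPM in *srebf1* DM against 0.282 CPM in *srebf2* DM) and *acta2* (2.17 CPM in *srebf1* DM against 0.219 CPM in *srebf2* DM) were higher. Of 16 immune cell genes, 4 were higher, among them the macrophage receptor *marco* (24.7 CPM in *srebf1* DM against 6.61 CPM in *srebf2* DM), and 1 was lower, *cd74a* (2.22 CPM in *srebf1* DM against 10.5 CPM in *srebf2* DM). Each of these directions had 1 of 3 genes at 10 CPM or more. Among all genes tested 9.0% were lower and 14.1% higher, and among those at 10 CPM or more 12% were lower and 8.2% higher.

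The erythrocyte list was split, 2 of 11 higher and 2 lower (0 and 2 of 5 at 10 CPM or more), with *hbae1.3*, an embryonic globin, at 30.5 CPM in *srebf1* DM against 98.3 CPM in *srebf2* DM. Of 23 genes of skin, muscle and nervous tissue, 3 were higher and 4 lower, and 1 gene, not called, reached 10 CPM. Beside both lists stand the shares over all genes tested, 14.1% higher and 9.0% lower. Leaving out all genes on the lists of other cell types gave 2410 genes higher and 1535 lower. Whether the makeup of the dissected tissue plays a part in the differences of the liver genes was not tested.

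**Figure D5:**
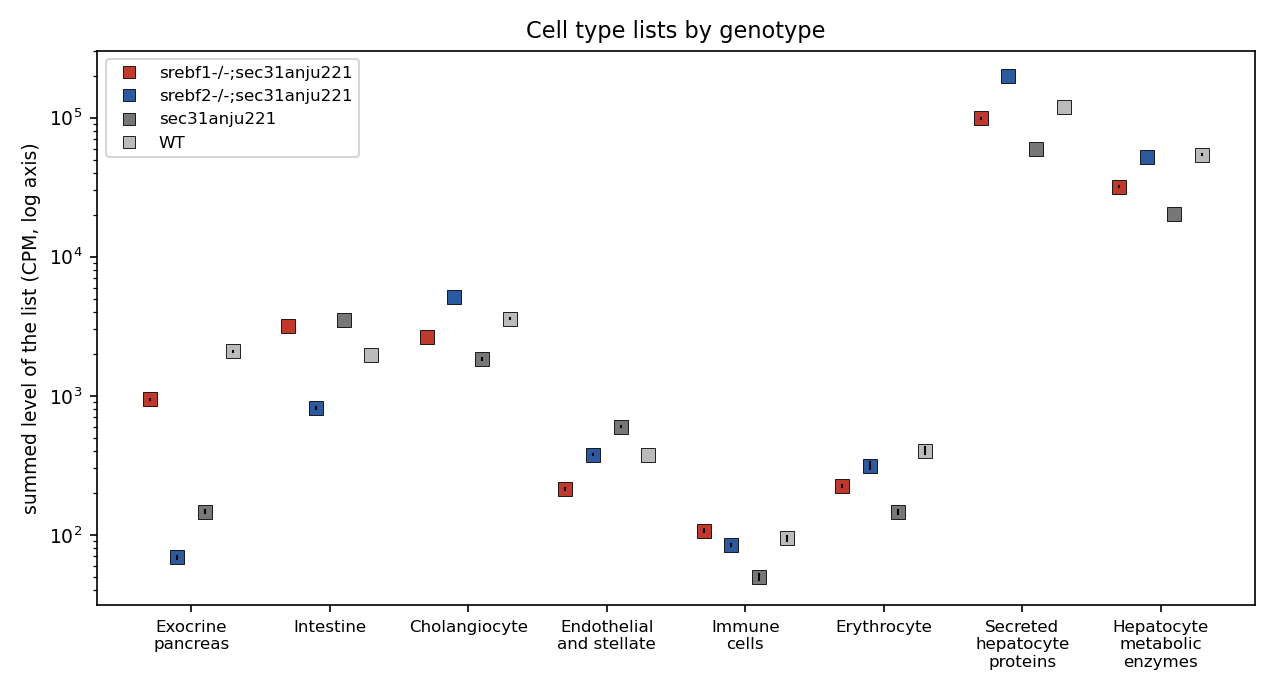
Summed level in CPM (log axis) of the matched genes of 8 lists, for *srebf1-/-;sec31anju221* (red), *srebf2-/-;sec31anju221* (blue), *sec31anju221* (dark grey) and WT (light grey). Squares lie between the lowest and the highest of 3 libraries, whose range is the short black line; the exocrine pancreas list is at 939 to 951 CPM in the *srebf1* double mutant and 67.2 to 70.29 CPM in the *srebf2* double mutant, whereas the 2 hepatocyte lists are higher in the *srebf2* double mutant.

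The *sec31anju221* level shows which double mutant stood apart from the shared background. Of 2445 genes higher in *srebf1* DM, *sec31anju221* was nearer to *srebf1* DM in 1622 (66.3%). Among the 1557 lower genes this held for 1063 (68.3%), and over all 17302 genes tested for 62.4%. Of the 764 lower genes with at least 10 CPM, 338 differed from *sec31anju221* at least 2-fold in *srebf2* DM and not in *srebf1* DM, 89 in *srebf1* DM and not in *srebf2* DM, 202 in both and 135 in neither. For the 523 higher genes at this level these counts were 207, 111, 131 and 74. Over all 6376 genes at this level they were 1248, 465, 1322 and 3341, so that *srebf2* DM stood apart more often there too. The share nearer to *srebf1* DM was 76.7% in the lower and 60.8% in the higher genes, beside 63.6% of all genes at this level.

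Both disrupted genes lie on chromosome 3, and a mutant line can carry parental sequence around its deletion. Within 5 Mb of *srebf1*, 10 of 36 genes tested were called (27.8%), and within 5 Mb of *srebf2* 7 of 28 (25%), beside 21.1% of all genes that could be placed. Near *srebf1* the called genes included *anks4b* (96.4 CPM in *srebf1* DM against 22.7 CPM in *srebf2* DM), *prpsap1* (8.37 CPM in *srebf1* DM against 32.6 CPM in *srebf2* DM) and *noxo1a*. *tom1l2a* (15.7 CPM in *srebf1* DM against 32.6 CPM in *srebf2* DM) lost its call without replicate 1 of *srebf1* DM (-0.992) or of *srebf2* DM (-0.996), and with library totals (-0.73). Near *srebf2*, *slc25a38a*, a mitochondrial carrier, had 21 CPM in *srebf1* DM against 43.1 CPM in *srebf2* DM, with a log2 fold change of -0.71 with library totals. *trim35-3*, also near *srebf2*, had a mean of 1.05 CPM in *srebf1* DM and 0 counts in *srebf2* DM. Set against a floor of 3 counts over the 3 libraries, its level in *srebf1* DM was 11-fold higher. This floor leaves out the variance over mean of 1.95 in *srebf2* DM and the error of the 46 counts in *srebf1* DM, so it gives no firm lower bound. The part of linked parental sequence in these differences was not tested.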

How the data were processed

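RNA from livers of 7 dpf zebrafish larvae was sequenced in 7 genotypes, with 3 libraries each, of which 6 libraries were compared. The files deposited by the authors hold raw counts of read pairs for each gene. Per the labels, alignment was with HISAT2 (v2.1.0) on GRCz11 and counting with FeatureCounts (v1.6.0), on the Ensembl annotation. The strand setting and the treatment of reads with several positions are not given in the sources used here, so genes with close or overlapping copies are uncertain. Library totals of 18918025 to 20712764 set the counting errors.

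A quasi-likelihood model was fitted to the counts in R (v4.3.3) with edgeR (v4.0.16; TMM scaling, prior count 0.125) over all 21 libraries, keeping genes whose normalized counts summed to at least 10. Because libraries of a genotype varied almost as sampling would, calls used the 2-fold, no-overlap and 1 CPM rule. Counting SEs include the observed variance over mean. Of 32520 identifiers, 29201 had a symbol from a name table. For 3594 of these the symbol was set through neighbours shared with the RefSeq annotation of GRCz12tu, which also placed genes near the disrupted loci. The call rule was tested on simulated data, with 200 of 200 genes changed 4-fold recovered and 29 false calls among 13525 genes. The simulated libraries varied by counting only, and the changed genes left out the most weakly expressed. Variation between livers was not simulated, so these counts do not give the false calls that it would cause. The members and the 31 gene lists were chosen with earlier results of these data known.

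Genes were named if disrupted or a paralog, called members of the 4 Srebp lists or a rate-limiting enzyme, among the 4 most changed called members of another list, among the 10 largest rises or falls at 10 CPM or more with a symbol that is no clone name, or called within 5 Mb of a disrupted gene. Not every gene that met these conditions is reported here. Other genes are said to be named after their values were seen. Alternatives were other scalings, DESeq2 (v1.42.0), filters, fold limits, prior counts, a replicate block, omission of each library, and an assumed variation between livers.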

Additional observations from a re-analysis of the deposited data

Results flagged for a closer look

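Among 4002 genes called between the double mutants, 65 were at least 2-fold above *sec31anju221* in *srebf1* DM and at least 2-fold below it in *srebf2* DM, and 33 had the reverse pattern. Of the genes described here 10 were of this kind, with no overlap between libraries, and this difference was not tested, since each genotype counted as 1 sample. Relative to *sec31anju221*, *ctrb.3* stood at 14.4-fold in *srebf1* DM and 0.31-fold in *srebf2* DM (log2 fold change between them 5.53), and *ctrl* (5.39) and *c6ast4* (4.83), also of the digestive enzymes, had the same pattern. It was also seen in *cyp3c4* (5.05) and *reep6* (4.96). In the reverse direction, *pcxb* was at 0.485-fold in *srebf1* DM and 2.09-fold in *srebf2* DM (-2.11). The others were *a2ml* (-2.48), *batf2* (-5.40), *cyp1c1*, a cytochrome with 0.937 CPM in *srebf1* DM against 5.23 CPM in *srebf2* DM (-2.47), and *gap43*, a nerve growth cone gene with 0.0915 CPM in *srebf1* DM against 1.28 CPM in *srebf2* DM (-3.70).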

How the results depend on the processing

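Relative to 4002 calls, 2445 higher and 1557 lower in *srebf1* DM, library totals gave 4213 higher and 840 lower. A filter of 10 CPM gave 1287 calls (523 higher, 764 lower), and the filter on 10 normalized counts alone 6302 (4350 higher). A limit of 4-fold gave 815 calls (534 higher, 281 lower) and one of 1.5-fold gave 7177 (4184 higher, 2993 lower). With libraries summed and an assumed coefficient of variation of 0.2 between livers, 2439 genes were called (1250 higher), and with 0.4 only 160 (100 higher, 60 lower). Of the Srebp factors list, 6 members were called, *srebf2* among them. The count was 1 at 10 CPM, 0 and 10 at limits of 4-fold and 1.5-fold, and 3 and 0 at assumed variations of 0.2 and 0.4. Cholesterol synthesis had 9, against 3 at 10 CPM, 2 at a limit of 4-fold, and 4 and 1 at the assumed variations. Cholesterol uptake had 2, both lower, against 1 with TMM on genes of at least 10 CPM. It had 0 and 6 at limits of 4-fold and 1.5-fold, and 1 and 0 at the assumed variations. With library totals 1 other member was called higher, while *ldlra* and *soat2* lost their calls. Fatty acid synthesis had 8, against 4 at 10 CPM, 3 at a limit of 4-fold and 0 at an assumed variation of 0.4. Omitting any one library gave 4132 to 4262 calls, 2536 to 2679 higher and 1580 to 1615 lower, with 5 to 6, 7 to 10, 2 to 3 and 8 to 9 members called in these lists. No call of a named gene reversed its direction in any alternative. This does not cover named genes that were not called, such as *hmgcrb* and *fasn*, whose log2 fold changes lay near 0. Fits of the 6 libraries alone kept 150 of 155 named calls or non-calls, DESeq2 150 and DESeq2 size factors 148. The causes were not tested.

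The replicate numbers did not pair libraries: deviations of same-numbered libraries correlated at -0.0306, -0.022 and -0.00581. With the replicate number as a block 4014 genes were called, and of the named genes 1 call was lost, *gucy2ca* at -0.999. An alternative filter, chosen after seeing the data, on 1 CPM in the mean over both genotypes gave 1833 higher and 1447 lower.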
